A study of Mus musculus with 77 samples.

Results

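Naive wild-type B cells were profiled for 3 histone marks in 2 mouse systems, and the libraries from these cells are the 19 of 77 libraries that are labelled WT and 0 h. The 19 were chosen by those labels alone and by no measured value. H3K27me3 was profiled in 4 WT mb1 and 3 WT tat libraries, and H2AK119Ub and H3K27ac in 3 libraries of each system. All cells were unstimulated B cells of female mouse spleen, selected for CD23, a surface receptor that marks follicular B cells. The WT mb1 mice carried mb1-cre, a Cre recombinase gene placed in the Cd79a locus and active in the B lineage, and their Xist gene was not floxed. The WT tat cells are labelled WT with no Cre allele. The labels place the cell-permeant enzyme TAT-Cre ahead of the 24 h culture of that system, so the 0 h cells had not received it. The 2 groups therefore share genotype at Xist, sex, tissue and stimulation state and differ in the Cre allele and in whatever else separated the experiments, which cannot be told apart here. No age is stated in the labels. Replicates are called biological there, but separate animals are not mentioned, so each p-value reflects spread among libraries that may be partly technical.

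H3K27me3 is placed by Polycomb repressive complex 2 and H2AK119Ub by Polycomb repressive complex 1, and both mark silenced genes, above all those of embryonic development. H3K27ac is placed by the acetyltransferases p300 and CBP at active promoters and enhancers. Follicular B cells are resting, recirculating cells that keep the B cell programme open and hold the programmes of other lineages and of the embryo closed. In CUT&RUN an antibody tethers a nuclease to the marked nucleosomes and the released DNA is sequenced. Each deposited file is a list of peaks with a total signal per peak.

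Because lists differed in length, each list was cut to its strongest peaks by total signal, down to as many peaks as the shortest list for that mark held. This left 2704 peaks per library for H3K27me3, 1999 for H2AK119Ub and 1329 for H3K27ac. A gene was counted as marked when a kept peak overlapped the gene or 2 kb of flank at either end, and its level is the signal there in ppm, parts per 1000000 of the summed signal of the kept peaks of that library. Absence from a cut list is a rank and not absence of the mark, so the deposited lists are given beside it. The shortest list of each mark was not cut, so a gene absent there had no deposited peak. Deposited H3K27me3 lists held between 2711 and 19074 peaks, H2AK119Ub lists between 2004 and 40688, and H3K27ac lists between 1336 and 4926. The number of reads behind each list is unknown, so a long list and a deep library cannot be told apart. Lists were of 2 types by the smallest total signal of a deposited peak, which was 49603 or more in one and 11931 or less in the other. The second type held H3K27me3 WT tat 2 and 3 and H2AK119Ub WT mb1 2, WT tat 2 and WT tat 3, so for H3K27me3 it lay in WT tat alone and list type and system cannot be told apart in full. Peaks whose highest signal exceeded 1000 numbered 5 to 7 in each cut list and held 2.67% to 12.5% of its signal.

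The promoters of 6 genes on which the description turns are shown first. They are RefSeq windows of GRCm38.p6 running from 250 bases before to 50 after a transcription start, read 5′ to 3′ on the strand of the gene. Capitals mark each CG dinucleotide, the 2 letters C and G in that order, which reads the same on both strands. Of 32619 such windows, 94.7% held at least 1 CG, and the median was 7. Cd79a, which encodes a chain of the B cell receptor, and Irf4, a transcription factor of activated B cells and plasma cells, stand for promoters under H3K27ac in all 6 libraries. Dlx1 and Hoxa9, homeobox genes of the embryo, stand for promoters under H3K27me3 in 7 of 7 libraries and under H2AK119Ub in 6 of 6. Nkx1-1, a homeobox gene, and Mknk2, a kinase that phosphorylates the translation factor eIF4E, lay among the genes that differed between the systems.
Cd79a, chr7:24897247-24897546, plus strand: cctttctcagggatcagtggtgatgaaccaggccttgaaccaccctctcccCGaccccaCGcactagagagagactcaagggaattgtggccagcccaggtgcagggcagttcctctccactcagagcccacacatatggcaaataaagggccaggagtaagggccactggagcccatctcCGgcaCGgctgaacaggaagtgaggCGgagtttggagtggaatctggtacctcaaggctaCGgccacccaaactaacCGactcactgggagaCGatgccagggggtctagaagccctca
Irf4, chr13:30748983-30749282, plus strand: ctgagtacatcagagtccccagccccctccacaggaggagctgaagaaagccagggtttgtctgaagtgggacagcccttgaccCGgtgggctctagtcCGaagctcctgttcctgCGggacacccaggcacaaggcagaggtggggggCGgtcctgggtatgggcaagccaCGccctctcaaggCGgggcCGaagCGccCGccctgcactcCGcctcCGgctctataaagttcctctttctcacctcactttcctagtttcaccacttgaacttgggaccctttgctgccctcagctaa
Dlx1, chr2:71529195-71529494, plus strand: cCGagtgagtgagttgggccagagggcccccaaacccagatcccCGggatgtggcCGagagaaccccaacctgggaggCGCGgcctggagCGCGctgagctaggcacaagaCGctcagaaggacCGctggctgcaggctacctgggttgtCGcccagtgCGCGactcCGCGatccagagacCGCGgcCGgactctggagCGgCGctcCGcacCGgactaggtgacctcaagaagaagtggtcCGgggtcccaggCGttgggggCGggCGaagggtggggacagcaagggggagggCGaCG
Hoxa9, chr6:52227321-52227620, minus strand: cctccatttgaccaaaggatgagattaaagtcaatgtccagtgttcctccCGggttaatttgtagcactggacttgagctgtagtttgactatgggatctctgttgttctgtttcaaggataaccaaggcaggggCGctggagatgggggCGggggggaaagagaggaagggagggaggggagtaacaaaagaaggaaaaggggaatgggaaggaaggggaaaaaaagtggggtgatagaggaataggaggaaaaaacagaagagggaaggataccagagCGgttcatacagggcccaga
Nkx1-1, chr5:33434041-33434340, minus strand: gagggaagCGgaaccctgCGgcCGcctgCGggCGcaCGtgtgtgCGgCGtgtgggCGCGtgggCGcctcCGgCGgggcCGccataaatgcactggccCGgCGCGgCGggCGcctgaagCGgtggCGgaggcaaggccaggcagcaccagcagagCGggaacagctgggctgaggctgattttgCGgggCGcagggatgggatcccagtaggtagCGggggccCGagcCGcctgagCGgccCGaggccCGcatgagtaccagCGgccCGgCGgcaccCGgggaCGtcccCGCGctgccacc
Mknk2, chr10:80676244-80676543, minus strand: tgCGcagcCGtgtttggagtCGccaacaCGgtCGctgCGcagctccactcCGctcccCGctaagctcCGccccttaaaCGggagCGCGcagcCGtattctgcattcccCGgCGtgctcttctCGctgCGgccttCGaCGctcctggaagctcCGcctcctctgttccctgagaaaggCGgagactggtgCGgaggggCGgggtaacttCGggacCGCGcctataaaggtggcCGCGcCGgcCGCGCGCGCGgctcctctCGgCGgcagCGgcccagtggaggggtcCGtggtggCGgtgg

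The windows held 8 CG for Cd79a, 11 for Irf4, 27 for Dlx1, 4 for Hoxa9, 37 for Nkx1-1 and 39 for Mknk2. At least as many were present in 48.9%, 41.7%, 15.6%, 69.0%, 5.62% and 4.48% of all windows, in that order. The Cd79a, Irf4 and Mknk2 windows had no H3K27me3 peak in any deposited list. The Dlx1, Hoxa9 and Nkx1-1 windows had no H3K27ac peak in any deposited list. The Hoxa9 window, with few CG, lay inside a peak that spanned several Hoxa genes. Over all shared protein-coding genes with a window, the promoter itself lay under a peak in every library for 645 of 1085 (59.4%) H3K27me3, 650 of 892 (72.9%) H2AK119Ub and 381 of 660 (57.7%) H3K27ac genes.

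The landscape common to both systems held 2016 genes with an H3K27me3 peak in all 7 libraries (5.87% of 34324), 1598 with an H2AK119Ub peak in all 6 (4.66%) and 1098 with an H3K27ac peak in all 6 (3.2%). Among 21627 protein-coding genes these were 1431 (6.62%), 1172 (5.42%) and 820 (3.79%). The H3K27me3 and H2AK119Ub sets shared 952 genes, 47.2% of the first and 59.6% of the second. H3K27ac stood apart from both: 19 genes were shared with H3K27me3 (0.942% and 1.73% of the 2 sets) and 35 with H2AK119Ub (2.19% and 3.19%). Counted in bases, 21.76, 18.73 and 15.47 Mb lay under peaks in every library of H3K27me3, H2AK119Ub and H3K27ac. The Polycomb marks had 9.125 Mb of these in common (41.9% of H3K27me3 and 48.7% of H2AK119Ub bases), against 0.0454 Mb for H3K27me3 with H3K27ac and 0.0677 Mb for H2AK119Ub with H3K27ac.

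Of 40 follicular B cell genes, 37 (92.5%) had an H3K27ac peak in all 6 libraries, 0 had an H3K27me3 peak in all 7, and 1, Pou2f2, had an H2AK119Ub peak in all 6. Fcer2a, which encodes CD23 itself, carried 403.4, 411.5 and 396.0 ppm of H3K27ac in WT mb1 and 427.7, 349.4 and 523.2 ppm in WT tat libraries. The groups overlapped, and the difference in log2(ppm + 304) was 0.05 ± 0.10 (SE; limma with Benjamini-Hochberg adjustment, adjusted p = 0.768). At Cd79a, the locus that holds the Cre gene in the mb1 system, H3K27ac was 201.3, 261.7 and 234.4 ppm in WT mb1 and 232.2, 189.1 and 270.3 ppm in WT tat libraries. The difference there was −0.01 ± 0.09 (adjusted p = 0.974). Per kb of gene window, Cd79b, the partner chain of Cd79a, had 39.5 to 56.5 ppm in the 6 libraries, and Pax5, the factor that fixes B cell identity, 9.53 to 10.7.

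Ms4a1, which encodes CD20, had 433.9 to 488.5 ppm of H3K27ac in WT mb1 and 496.3 to 747.5 in WT tat libraries. These did not overlap, and the difference of 0.31 ± 0.12 did not pass the test (adjusted p = 0.331). Ebf1, a founder factor of the lineage, had 3968 to 4172 ppm in WT mb1 and 3098 to 3826 in WT tat libraries, a difference of −0.24 ± 0.09 that did not pass either (adjusted p = 0.311). Over the 37 members tested, 0 passed in either direction, beside 3.53% of all genes tested, so the count says little about the list, and their median difference was 0.08 beside −0.03 over all 1811 genes tested. Of the 3 members without a peak in every cut list, Klf2, a factor of quiescence and recirculation, and Cd40, the receptor for T cell help, were in 0 of 6 cut lists, and Siglecg, an inhibitory receptor, was in 1. Each of the 3 had a deposited peak in 3 WT mb1 and 2 WT tat libraries.

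The widest stretches under H3K27ac in all 6 libraries lay over B cell regulators. A stretch of 95.8 kb lay at Mef2c, a factor of B cell survival and proliferation, 73.7 kb at Ikzf1, the Ikaros gene, 70.8 kb at Lyn, a kinase of receptor signalling, 58.8 kb at Pik3ap1, an adaptor of that signalling, and 58.3 kb at Ets1, a factor that restrains plasma cell formation. Another of 75.7 kb covered 6 Gimap genes, GTPases of lymphocyte survival. The median stretch was 12.3 kb. Per kb, the highest lowest-library levels among protein-coding genes were those of A530032D15Rik (53.5 to 65.9 ppm per kb), the overlapping Evi2a, Evi2 and Evi2b, Cnr2, a cannabinoid receptor of B cells (42.0 to 56.4), Ms4a6c, Irf4 (41.5 to 50.0), Sp140, Cd79b and Scd1. None of these 10 genes passed the test between systems (limma adjusted p from 0.387 to 0.959), beside 3.53% of all genes tested. They were chosen by the level in their lowest library, so genes low in 1 system could hardly enter, and the count says little.

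Of 70 developmental Polycomb targets, 64 (91.4%) had an H3K27me3 peak in all 7 libraries, 35 (50.0%) an H2AK119Ub peak in all 6, and 0 an H3K27ac peak in any cut or deposited list. The 6 outside the H3K27me3 count were Sox9, Irx1, Irx3, Bmp4, Gbx2 and Shh, and each had a deposited H3K27me3 peak in at least 2 libraries of each system. Hoxc genes lay under the widest common stretch of H3K27me3 (152.3 kb, Hoxc12 to Hoxc4) and under 101.3 kb of H2AK119Ub. Other wide H3K27me3 stretches held the homeobox genes Pdx1 and Cdx2 (63.8 kb) and the cell cycle inhibitor genes Cdkn2a and Cdkn2b (47.7 kb). Lhx9, a LIM homeobox gene, had 807.8, 817.7, 891.7 and 967.8 ppm of H3K27me3 in WT mb1 and 1006, 1070 and 833.5 ppm in WT tat libraries, with overlapping groups (difference 0.13 ± 0.11, adjusted p = 0.549). Dlx1 had 273.1 to 342.6 ppm in WT mb1 and 344.2 to 372.3 ppm in WT tat libraries, which did not overlap, and the difference of 0.17 ± 0.08 did not pass the test (adjusted p = 0.358). Hoxa7, Hoxa9, Hoxa10, Hoxa11 and Hoxa13 each had 28.2 ppm per kb in their lowest library because 1 peak spanned them there, so they are not separate measurements. Of the 65 members tested for H3K27me3, 0 passed in either direction, beside 3% of all genes tested, so the count says little about the list, with a median difference of 0.15 beside −0.02 over all 4160 genes tested.

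**Figure D1:**
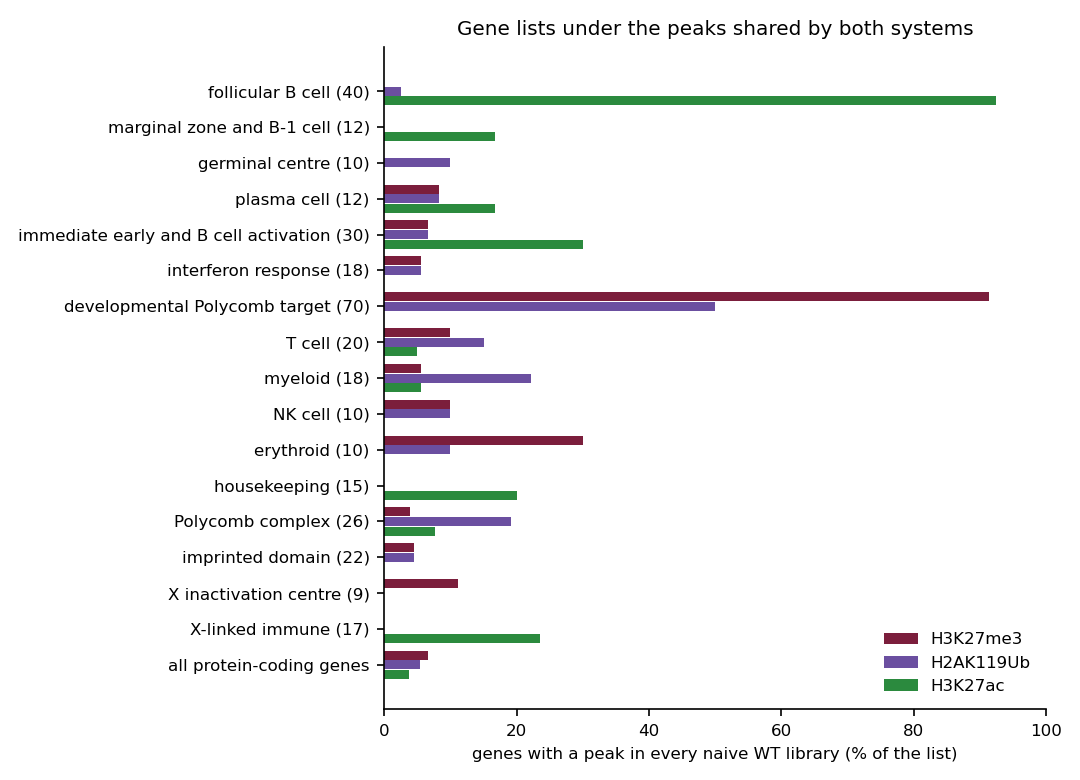
Share of each gene list with a peak in every naive WT library of a mark at equal peak number; the number in brackets is how many list members were in the gene table, and the lowest bars give all protein-coding genes. H3K27ac covered 92.5% of the follicular B cell list and H3K27me3 91.4% of the developmental list, against 3.79% and 6.62% of all protein-coding genes.

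Genes of other lineages and of later B cell states are set beside the 3.79% of all protein-coding genes with H3K27ac in all 6 libraries. Of 10 germinal centre genes 0, of 12 plasma cell genes 2 (Irf4 and Edem1), of 12 marginal zone and B-1 genes 2 (Dtx1 and Mzb1), of 20 T cell genes 1 (Cd2), of 18 myeloid genes 1 (Flt3), and of 10 NK cell and 10 erythroid genes 0 each had an H3K27ac peak in all 6 libraries. Plasma cell and marginal zone genes were thus at 16.7% each, T cell genes at 5% and myeloid genes at 5.56%, none of them below the share of all genes. Of 15 housekeeping genes 3 (20%), Actb, Ywhaz and B2m, had such a peak, and 7 had none in any deposited list, although such genes are active in most cells. Prdm1, the master regulator of plasma cells, had no H3K27ac peak in any deposited list and carried H2AK119Ub in every library, with 772.2, 662.1 and 845.5 ppm in WT mb1 and 819.6, 808.9 and 689.0 ppm in WT tat libraries. Rgs13, a signalling regulator of germinal centre cells, also carried H2AK119Ub in every library (707.6 to 1134 ppm). Gata3, a master regulator of T cells, and Il7r, a cytokine receptor of T cells and early B cells, carried both Polycomb marks in every library. Most members of these lists did not. H2AK119Ub in every library was found at 1 of 12 plasma cell, 1 of 10 germinal centre and 3 of 20 T cell genes, beside 5.42% of all protein-coding genes. H3K27me3 was found so at 1, 0 and 2 of them, beside 6.62%. Of 30 immediate early and activation genes, 9 (30.0%) had H3K27ac in all 6 libraries, among them Junb, Ier2, Zfp36, Cd83, Rel and Nfkb1, while Fos, Fosb and Egr2 had no deposited H3K27ac peak.

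Chromosome X was poor in all 3 marks in both systems, as measured by the log2 ratio of the fraction of X that peaks covered to the fraction they covered on autosomes. For H3K27me3 it was −2.04 ± 0.37 (SD, n = 4) in WT mb1 and −2.30 ± 0.72 (n = 3) in WT tat libraries (exact two-sided permutation p = 0.629). For H2AK119Ub it was −1.95 ± 0.12 and −1.90 ± 0.15 (n = 3 each, exact p = 0.7), and for H3K27ac −1.92 ± 0.19 and −1.87 ± 0.13 (n = 3 each, exact p = 0.7). The smallest p these designs allow is 0.0286 for H3K27me3 and 0.1 for the others. Over 9 such library comparisons the Benjamini-Hochberg value was 0.788 for each ratio.

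Of 966 protein-coding X genes, 9 (0.932%) had H3K27me3 in all libraries, 9 (0.932%) H2AK119Ub and 14 (1.45%) H3K27ac. The H3K27ac genes included Btk, the kinase of B cell receptor signalling (350.1 to 647.0 ppm), Tlr7, a sensor of single-stranded RNA (162.7 to 526.8 ppm), Msn (628.2 to 1233 ppm), Cybb, Sash3, P2ry10 and Gpr174. The H2AK119Ub genes included Bcor, a subunit of a variant Polycomb complex (253.0 to 1157 ppm), and Dach2. The H3K27me3 genes included Cdx4, a homeobox gene near the X inactivation centre (120.4 to 215.6 ppm). Mid1, which spans the pseudoautosomal boundary and its repeats, was in all 3 sets, and its values are uncertain for that reason. Xist, the RNA of the inactive X, had no deposited H3K27me3 peak, an H2AK119Ub peak in 2 deposited lists of each system and an H3K27ac peak in 1 deposited WT mb1 list.

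Pairs of libraries were compared by the bases their peaks had in common. The share of bases in common between pairs of cut H2AK119Ub lists (shared over combined length) had a median of 0.553 between systems, 0.560 within WT mb1 and 0.545 within WT tat. For H3K27me3 the medians were 0.552 between systems, 0.610 within WT mb1 and 0.476 within WT tat, and for H3K27ac 0.595, 0.684 and 0.601. Pairs within WT mb1 had the highest median for each mark, and the ranges of pairs between systems overlapped those of pairs within WT tat. Pairs share libraries and were not tested.

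At equal peak number, the length under peaks was lower in every WT tat than in every WT mb1 library for 2 marks. Adjustment over the 9 library comparisons could not decide on either difference. With smallest possible p of 0.0286 for H3K27me3 and 0.1 for the others, none of the 9 could pass 0.05 after it. H3K27me3 peaks covered 64.1, 58.5, 60.6 and 81.8 Mb in WT mb1 and 55.6, 53.2 and 34.7 Mb in WT tat libraries, with no overlap (difference −18.4 ± 8.5 Mb, SE, exact two-sided permutation p = 0.0286, the smallest possible, Benjamini-Hochberg 0.257 over 9). H3K27ac peaks covered 39.2, 33.0 and 39.8 Mb in WT mb1 and 31.1, 20.0 and 26.1 Mb in WT tat libraries, again with no overlap (−11.6 ± 3.9 Mb, exact p = 0.1, the smallest possible, Benjamini-Hochberg 0.343). H2AK119Ub peaks covered 39.3 to 45.6 and 31.7 to 40.6 Mb, which overlapped (exact p = 0.4). The genes touched moved with this: 3819 to 4404 in WT mb1 and 2956 to 3556 in WT tat for H3K27me3, 1812 to 1932 and 1425 to 1650 for H3K27ac, and 2613 to 2788 and 2460 to 2832 for H2AK119Ub. In the deposited lists the H3K27me3 difference in covered length had the other sign (5.52 Mb more in WT tat, exact p = 0.714).

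**Figure D2:**
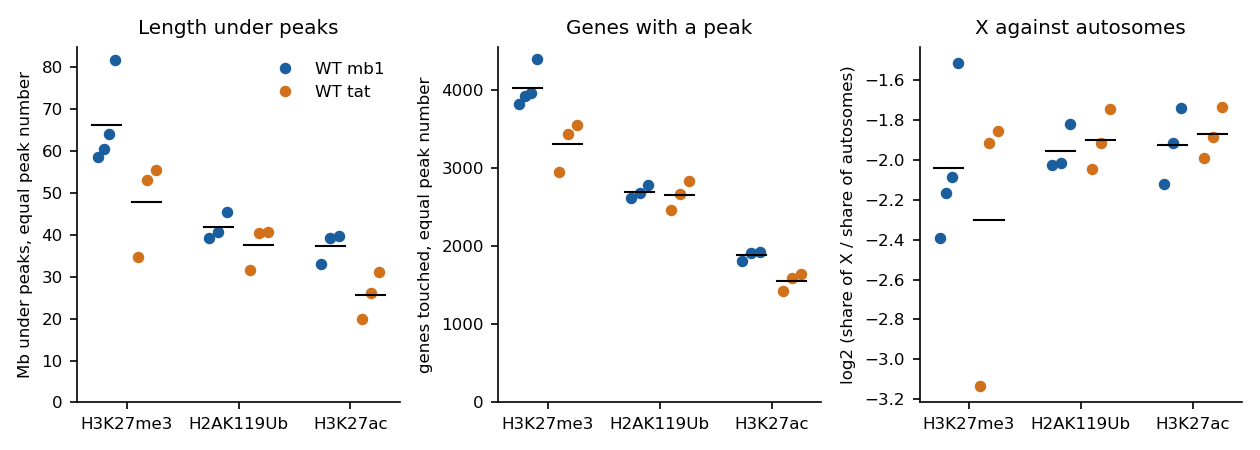
Each naive WT library as a point, with lines at the group means, for the length under peaks in Mb, the number of genes touched and the log2 ratio of X to autosomes, all at equal peak number within a mark. WT tat lists covered 34.7 to 55.6 Mb of H3K27me3 against 58.5 to 81.8 Mb in WT mb1, while the X ratios of the groups overlapped for every mark.

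Gene by gene, 9 of 4160 tested genes were higher in WT tat (0.216%) and 116 lower (2.79%) for H3K27me3 (limma, adjusted p under 0.05). For H2AK119Ub, 10 of 2751 were higher (0.364%) and 7 lower (0.254%), and for H3K27ac, 9 of 1811 were higher (0.497%) and 55 lower (3.04%). Calls in either direction were thus 3% of the genes tested for H3K27me3, 0.618% for H2AK119Ub and 3.53% for H3K27ac. The libraries of the 2 systems did not overlap at 725 H3K27me3 genes (17.4%), 293 H2AK119Ub genes (10.7%) and 438 H3K27ac genes (24.2%). A peak in every cut list of 1 system and none of the other was found at 8 genes for WT tat (0.192%) and 118 for WT mb1 (2.84%) for H3K27me3, at 19 (0.691%) and 20 (0.727%) for H2AK119Ub, and at 9 (0.497%) and 67 (3.7%) for H3K27ac. Many called genes were absent from the cut lists of 1 system. Of the 116 lower H3K27me3 genes, 82 were absent from all 3 cut WT tat lists, but all 116 had a deposited peak in at least 1 WT tat library and 71 in all 3. Of the 55 lower H3K27ac genes, 34 were absent from the cut WT tat lists, 53 had a deposited WT tat peak and 9 had one in all 3. All 10 higher and 7 lower H2AK119Ub genes were absent from the cut lists of the other system. Such a gene passed the filter of signal in at least 3 libraries only through the system where it is high, and a group of zeros has no spread of its own, so it is counted here but its p is not given as support. With the deposited lists, limma called 0 genes for each mark (428, 172 and 418 genes had an unadjusted p under 0.05). With lists cut to equal covered length, an alternative added after seeing the data, the split was 58 higher and 29 lower for H3K27me3, 20 and 2 for H2AK119Ub and 61 and 40 for H3K27ac, so the predominance of lower calls for H3K27me3 and H3K27ac did not hold there. With the tested genes held fixed, leaving out 1 library at a time kept more lower than higher calls for H3K27me3 (at most 220 calls, without WT tat 2) and for H3K27ac (38 to 117 calls, 117 without WT tat 1, 96 without WT tat 3 and 38 without WT mb1 3). For H2AK119Ub it gave 0 limma calls without WT mb1 1 or WT mb1 3 (120 and 122 genes at an unadjusted p under 0.05), 10 without WT mb1 2, 25 without WT tat 1, 11 without WT tat 2 and 12 without WT tat 3. This alternative was added after seeing the data. With the filter applied again to the libraries left, H3K27ac had more higher than lower calls whenever a WT mb1 library was left out. The counts were 8 higher and 5 lower without WT mb1 1, 15 and 12 without WT mb1 2, and 6 and 3 without WT mb1 3. That filter drops genes marked in WT mb1 alone once 1 WT mb1 library is left out. Covered length moves with the calls, and its part in them was not tested further.

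**Figure D3:**
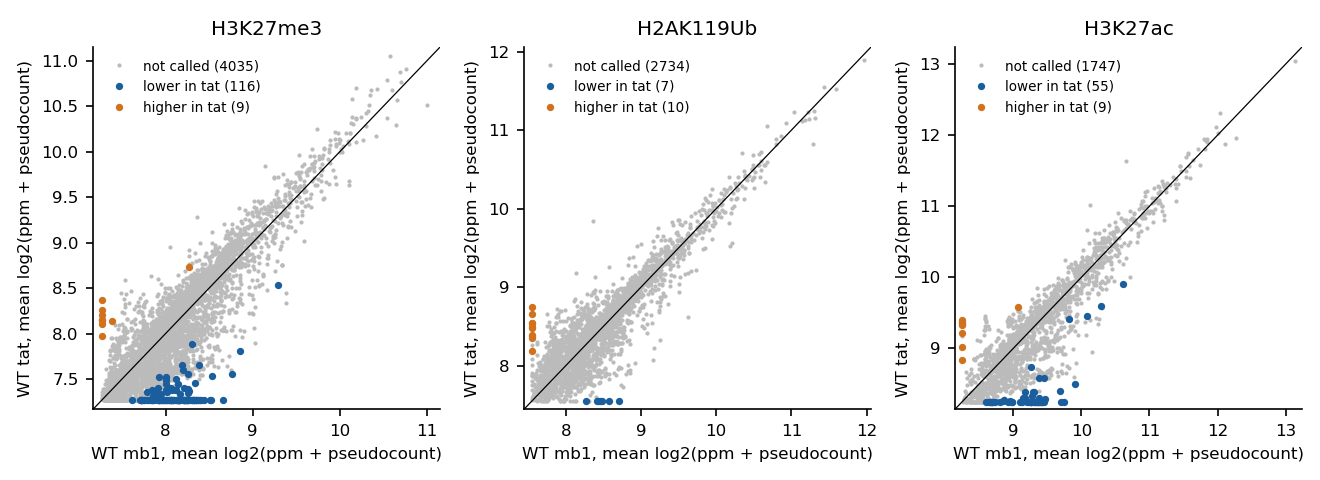
Mean log2(ppm + pseudocount) of each tested gene in WT mb1 against WT tat libraries, 1 panel per mark, with the diagonal of equal levels and the number of genes in each class. Most genes lie along the diagonal, and the called genes lie mainly at the floor of 1 system, where the gene is absent from its cut lists.

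The genes that had a peak in every cut list, where both groups have a spread, gave 8 calls of 2016 (0.397%) for H3K27me3, 0 of 1598 (0.000%) for H2AK119Ub and 8 of 1098 (0.729%) for H3K27ac. This filter was also added after seeing the data. At an unadjusted p under 0.05 the H2AK119Ub genes numbered 82. The 8 H3K27me3 genes were Ccdc92b, Macf1, 2610027K06Rik, Adgrb2, Aplp2, Nkx1-1, Npdc1 and Cntfr, and all were lower in WT tat. Of the 8 H3K27ac genes, Mknk2, Eif4enif1, Tfeb, H60b, Mta3, Itpkb and Gm9530 were lower in WT tat and Gm51701 was higher. The last peak kept had a median of 154 ppm for H3K27me3 and 304 ppm for H3K27ac. All WT tat levels of Ccdc92b, Adgrb2, Nkx1-1, Cntfr, Mknk2, H60b, Eif4enif1 and Gm9530 lay below it. Such levels can come from a peak mostly outside the gene window, so these genes may be near absence in WT tat. Macf1, Tfeb, Itpkb and Mta3 lay above it in every WT tat library.

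Ccdc92b, a coiled-coil gene, had 291.4, 296.0, 249.9 and 282.1 ppm of H3K27me3 in WT mb1 and 37.4, 34.1 and 30.4 ppm in WT tat libraries. All WT tat libraries lay far below all WT mb1 libraries, and the difference in log2(ppm + 154) was −1.20 ± 0.07 (adjusted p = 0.000211 among genes with a peak in every list). The H2AK119Ub peaks of Ccdc92b went the other way, with 0 ppm in all 3 WT mb1 and 177.6, 196.3 and 184.4 ppm in WT tat libraries. A deposited H2AK119Ub peak was present there in 1 of 3 WT mb1 libraries. With lists cut to equal covered length, the H3K27me3 difference fell to −0.23 (adjusted p = 0.644).

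Macf1, a large protein that links actin and microtubules, had 474.5, 452.2, 471.5 and 480.4 ppm of H3K27me3 in WT mb1 and 218.9, 220.5 and 212.5 ppm in WT tat libraries, a difference of −0.75 ± 0.07 (adjusted p = 0.00205). Its libraries agreed closely within each system. Gm12925, a long non-coding gene inside Macf1, was called as well (108.6 to 147.0 ppm against 0 in all 3), and the 2 cannot be told apart without strand. Adgrb2, an adhesion receptor of neurons, had 142.7 to 224.3 ppm against 40.2 to 52.4 ppm (−0.72 ± 0.10, adjusted p = 0.0274). Its own promoter window, with 45 CG, lay under an H3K27me3 peak in all 7 libraries.

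Nkx1-1 had 104.7, 116.7, 105.4 and 86.1 ppm of H3K27me3 in WT mb1 and 27.9, 24.0 and 36.4 ppm in WT tat libraries (−0.49 ± 0.08, adjusted p = 0.0395). The promoter printed above lay under a peak in 4 of 4 WT mb1 and 1 of 3 WT tat libraries, both in cut and in deposited lists. Cntfr, a subunit of a neurotrophic cytokine receptor, had 274.3 to 342.0 ppm against 25.6, 54.3 and 145.1 ppm, the widest spread within WT tat among the 8 (−1.05 ± 0.17, adjusted p = 0.0401). Npdc1, Aplp2 and the long non-coding 2610027K06Rik had differences of −0.60, −0.52 and −0.99 (adjusted p = 0.0395, 0.0395 and 0.00266), and their groups did not overlap. With a block for replicate number, the adjusted p of the 8 genes in the fit over all tested genes ran from 0.0669 to 0.192, so none passed.

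Mknk2 gave the lowest adjusted p among the 8 H3K27ac genes. It had 375.4, 438.2 and 385.9 ppm in WT mb1 and 72.9, 90.5 and 79.2 ppm in WT tat libraries, a difference in log2(ppm + 304) of −0.87 ± 0.07 (adjusted p = 0.0029). Its CG-rich promoter lay under an H3K27ac peak in all 6 cut lists, so the systems did not differ in whether the promoter was marked. The level counts a peak's signal by the share of the peak inside the gene window. A difference in level can therefore be one of signal or of how peaks lie over the gene, and signal at the promoter itself was not measured. With the replicate block its adjusted p was 0.0297, while the other 7 lost the call (0.0809 to 0.194). With equal covered length the difference was −0.45 (adjusted p = 0.269), and with the deposited lists −0.98 (adjusted p = 0.0736).

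Tfeb, a regulator of lysosome genes, had 925.5, 1040 and 883.8 ppm in WT mb1 and 565.7, 424.0 and 438.2 ppm in WT tat libraries (−0.69 ± 0.10, adjusted p = 0.0276). Itpkb, an inositol trisphosphate kinase of lymphocyte signalling, had 1338, 1257 and 1190 ppm against 620.6, 537.0 and 824.2 ppm (−0.71 ± 0.12, adjusted p = 0.0427). H60b, a ligand of the NK cell receptor NKG2D, had 357.7 to 364.8 ppm against 15.4, 92.7 and 140.3 ppm (−0.79 ± 0.13, adjusted p = 0.0309). Mta3, a subunit of a chromatin remodelling and deacetylase complex, had 693.9 to 860.9 ppm against 351.4 to 457.6 ppm (−0.62 ± 0.10, adjusted p = 0.0309). The groups of these 4 did not overlap. Eif4enif1 had 156.3 to 236.2 ppm against 2.13 to 2.38 ppm (−0.69 ± 0.08, adjusted p = 0.0173), values at which a peak just reaches the gene's window. With equal covered length the differences of Mta3 and Eif4enif1 were 0.03 and 0.00 (adjusted p = 0.907 and 0.937).

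**Figure D4:**
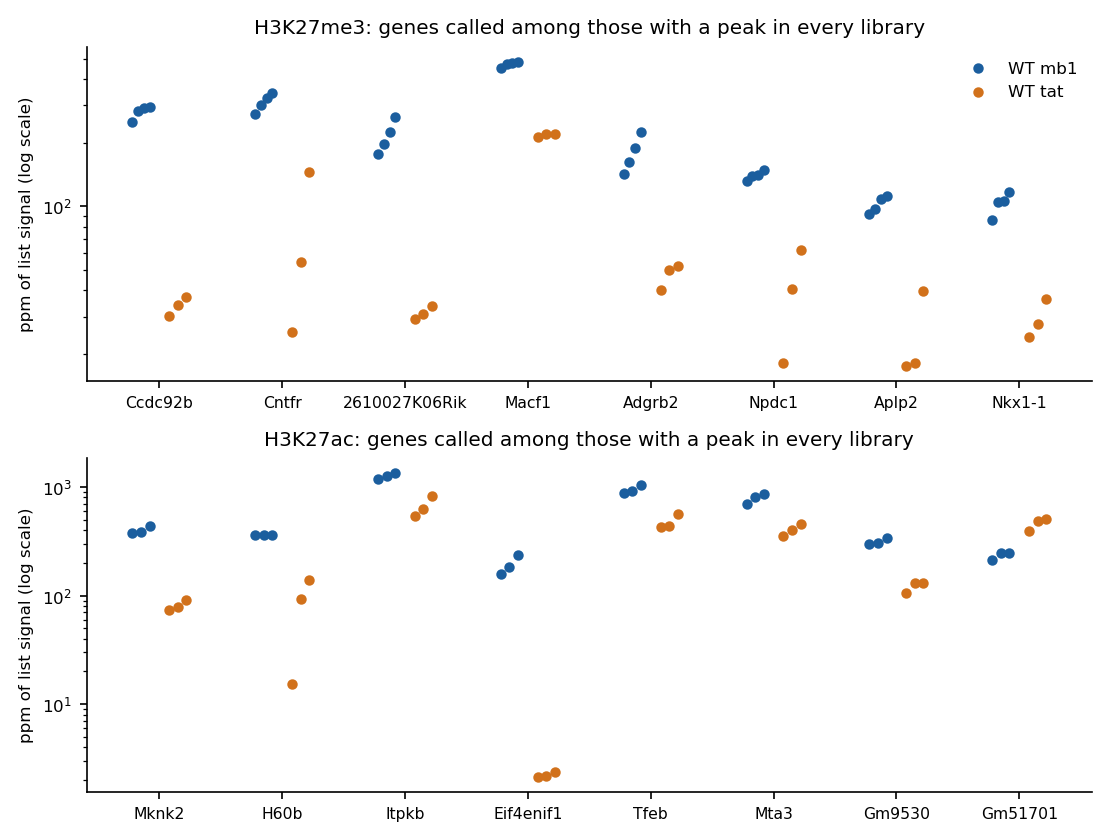
Level in ppm of list signal (log scale) in each WT mb1 and WT tat library for the 8 H3K27me3 and 8 H3K27ac genes called among genes with a peak in every cut list. The groups do not overlap for any of the 16, and Gm51701 is the 1 gene higher in WT tat.

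Among genes absent from the cut WT tat lists, 10 were named for H3K27ac by the rank of their p. Smad7, an inhibitor of TGF-β signalling, had 495.1, 573.5 and 513.8 ppm in WT mb1 and 0 in all 3 WT tat libraries. Abcg1, a cholesterol exporter (380.9 to 421.1 ppm), Gnai2, a G protein subunit of chemokine signalling (321.1 to 351.6), Cd200, an inhibitory ligand (334.3 to 388.3), Ubqln1, Exoc6, Ugcg, Epc1, Arf1 and Fam149b had the same form. Each of the 10 had a deposited peak in WT tat 1 and WT tat 3, where the zeros are ranks below the last peak kept. None had one in WT tat 2, whose list was the shortest for the mark and was not cut. Those higher in WT tat were Rab3ip, Med12l, Slamf7, a receptor of the SLAM family (317.5 to 391.4 ppm against 0), Inpp5a and Gpr171, and all 5 had a deposited peak in 3 WT mb1 libraries. Gpr171 lies inside Med12l, so their values are not independent, and the difference of Med12l turned to −0.12 with the deposited lists and to −0.04 with lists ranked by highest signal.

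The lower H3K27me3 genes of this kind were Pak6, a kinase (175.3 to 201.6 ppm in WT mb1 against 0 in WT tat), Rspo1, an enhancer of Wnt signalling (155.9 to 170.2), Spire1, Nectin3, Glis1, Phf21b, Btn2a2, Sox13 and Wipf1. Each had a deposited peak in 2 or 3 WT tat libraries. Hhip, an inhibitor of Hedgehog signalling (153.1, 200.6 and 174.0 ppm in WT tat against 0 in WT mb1), Spx, Fstl1, Golt1b, Cidea and 1810009J06Rik were absent from the cut WT mb1 lists and present in all 3 of WT tat. Spx and Golt1b overlap at their windows and may share a peak. Nr5a2, a nuclear receptor with peaks in every list, had 354.6 to 553.9 ppm in WT mb1 and 699.9 to 893.2 ppm in WT tat libraries, with no overlap, and did not pass the threshold (0.70 ± 0.14, adjusted p = 0.0568). For H2AK119Ub, Tlcd3a, Ankrd35, Pmepa1, Metrnl, Slc41a2, Gm12447, Ptgfrn and Adgrl1 were in the cut WT tat lists alone, as was Ccdc92b, and Shisa7, Zfp13, Lrrc8e, Elfn2 and Ankrd45 in the cut WT mb1 lists alone.

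Over the 16 gene lists, 5 members were called, all lower in WT tat, a direction that most calls had over all genes. For H3K27ac they were 1 of 5 marginal zone and B-1 and 1 of 13 activation genes tested. For H3K27me3 they were 1 of 5 myeloid, 1 of 6 Polycomb complex and 1 of 7 imprinted genes tested. The other lists had none. Over all genes tested, 3.53% were called for H3K27ac and 3% for H3K27me3, so single calls say little about a list. Fcrl5, a receptor of marginal zone and B-1 cells, had 92.2, 100.8 and 105.3 ppm of H3K27ac in WT mb1 and 0 in WT tat libraries. Btg2, an anti-proliferative early gene, had 250.4 to 315.8 ppm against 0, 38.9 and 0 ppm. Cebpa, a myeloid factor, Cbx2, a Polycomb complex 1 subunit, and Igf2, an imprinted growth factor, had 58.3 to 112.3, 87.5 to 122.0 and 149.5 to 221.7 ppm of H3K27me3 in WT mb1 libraries. All 3 were absent from the cut WT tat lists and had a deposited peak in 3 of 3 WT tat libraries. Of the 18 myeloid genes, 8 had no deposited H3K27me3 peak in either system, among them Itgam, Csf1r and Lyz2. A peak in at least 1 cut list was found at 7 and a deposited peak in every library at 4, and Cd14 was in all cut lists.

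The same contrast of systems can be read in naive Xist fl/fl cells, which share no library with the WT cells and did not choose these genes. There the mb1-cre cells (H3K27me3 5 libraries, others 3) lack Xist in the B lineage, while the tat cells (3 libraries for each mark) had not yet received TAT-Cre, so system and Xist deletion cannot be told apart. For H3K27me3, 81 of the 116 genes lower in WT tat could be tested. Of these, 27 had peaks in mb1 lists alone, so their sign was fixed by the filter, and of the 54 with peaks in both systems 46 were below 0. Over all 3413 genes tested in both genotypes, including those with peaks in 1 system alone, 52.2% were below 0. The 116 genes lay at 99 places, so they are not all independent. Syde2 and Adgrb2 were called lower among the 54. In the Xist fl/fl fit 47 of 3567 genes were called lower in tat (1.32%) and 4 higher (0.112%). For H3K27ac, 23 of the 55 lower genes could be tested, 7 of them with peaks in mb1 lists alone. Of the other 16 there were 14 below 0, beside 51.7% of all 1573 genes tested in both genotypes. Itpkb and Mknk2 were called among the 14, with 69 of 1645 genes called lower (4.19%) and 10 higher (0.608%). For H2AK119Ub, 6 of the 10 higher genes could be tested, 1 of the 4 with peaks in both systems was above 0, and Ankrd35 and Ptgfrn had peaks in all 3 mb1 and no tat list (3 of 2592 genes were called higher, 0.116%, and 13 lower, 0.502%). The covered length of H3K27me3 in Xist fl/fl cells was 40.7 to 109.8 Mb in mb1 and 28.7 to 41.7 Mb in tat libraries. These ranges overlapped and were not compared by a test, and the 109.8 Mb was that of mb1 replicate 5. The part of covered length in the differences between systems was not tested.

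Among the genes with a peak in every WT list, Adgrb2, Mknk2 and Itpkb passed in both genotypes. Adgrb2 had 200.5 to 327.0 ppm of H3K27me3 in Xist fl/fl mb1 and 37.9, 65.6 and 66.5 ppm in Xist fl/fl tat libraries (−0.75, limma adjusted p = 0.0148). The mb1 values of Adgrb2 include replicate 5, whose labels conflict. Mknk2 had 313.2 to 372.5 ppm of H3K27ac against 89.1 to 124.4 ppm (−0.68, adjusted p = 0.00647). Itpkb had 1052 to 1206 ppm against 478.9 to 526.0 ppm (−0.86, adjusted p = 0.00228). The groups of all 3 were apart in both genotypes.

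**Figure D5:**
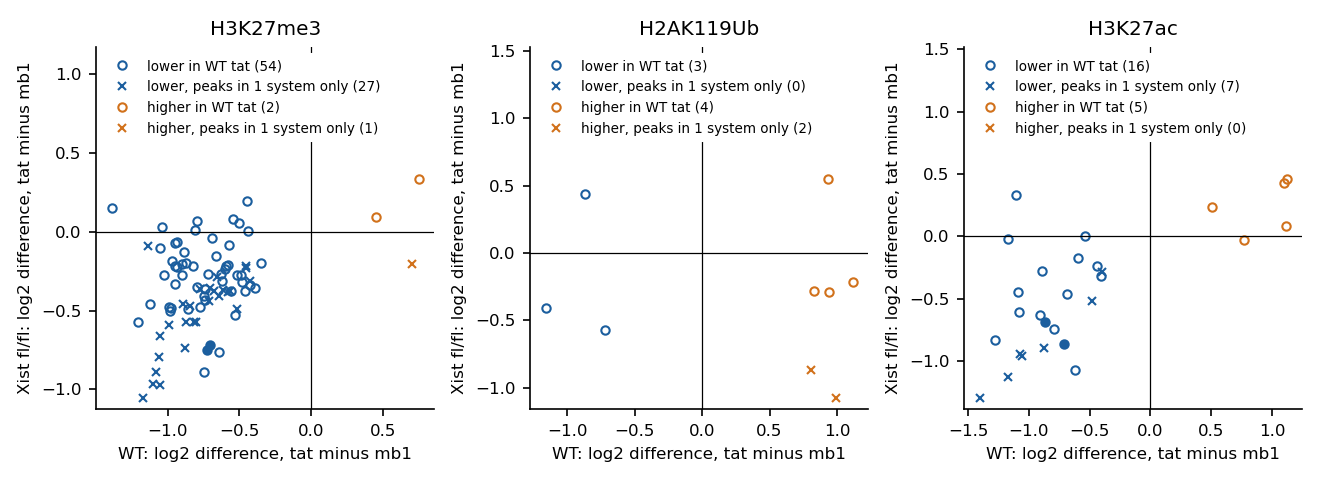
Difference between systems (tat minus mb1, log2) of each gene called in WT cells, with the WT value on the horizontal and the Xist fl/fl value on the vertical axis; crosses are genes with peaks in the Xist fl/fl lists of 1 system only, whose sign the filter fixed, filled circles passed in Xist fl/fl cells too, and the legend counts the genes tested in both. Of the circles lower in WT tat, 46 of 54 for H3K27me3 and 14 of 16 for H3K27ac lie below 0 in Xist fl/fl cells. Of all genes tested in both genotypes, 52.2% and 51.7% were below 0 there.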

How the data were processed

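CUT&RUN libraries of H3K27me3, H2AK119Ub and H3K27ac were deposited as SEACR peak lists, per the file headers and names, with a total signal and a highest signal per peak. The signal values are the authors' own, and no source used here states their scaling, the control or the SEACR version. Per the submitters' processing notes, Trimmomatic 0.32, Bowtie2 2.3.4.1, Picard and deepTools 3.5.1 were used with mm10. Peaks on the autosomes and X were kept, lists were cut to equal length by total signal, and signal was summed per gene body ± 2 kb over 34324 RefSeq genes (GRCm38.p6) as ppm of the cut list. Genes with signal in at least 3 libraries were tested with limma 3.58.1 on log2(ppm + pseudocount), the pseudocount being the median ppm of the last peak kept (154, 187 and 304), with Benjamini-Hochberg adjustment over all genes tested and a threshold of 0.05. Library measures were compared by exact permutation tests. Scripts used Python 3.11.15, numpy 2.4.6, pandas 2.3.3 and R 4.3.3 and were tested on simulated data. Xist fl/fl lists of H3K27me3 were cut to 1950 peaks, their own shortest length.

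Genes named are, per mark and direction, the 10 protein-coding genes with the smallest p whose libraries did not overlap, the 10 shared protein-coding genes with the highest lowest-library ppm per kb, Cd79a, Fcer2a, Xist, up to 8 members of each list and any called, and, added after seeing the data, genes called with a peak in every list and single genes that illustrate a list, a wide stretch or X. The members and lists were chosen with earlier results of these data known. Replicate numbers did not pair the samples. Alternatives covered list length, ranking, pseudocount, scaling, a replicate block, and leaving out each library.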

Additional observations from a re-analysis of the deposited data

Results flagged for a closer look

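In the 4 H3K27me3 WT mb1 libraries, 1 library stood apart from the other 3 at 3 named genes. The gap of the highest library to the next, as a share of the group's range, was 0.83 for Nr5a2, 1 for Zfp462 and 0.836 for Adm. Chance flags about 1 in 20 groups.

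The difference between systems (tat minus mb1) itself differed between Xist fl/fl and WT cells for 7 named genes, by limma's test of the interaction. All but Gm52612 had been called in the same WT libraries, a choice that favours a smaller difference in Xist fl/fl cells. The values are therefore a description and not support. For H2AK119Ub the Xist fl/fl difference minus the WT difference was −2.06 for Ankrd35, −1.66 for Ptgfrn and −1.42 for the neighbouring Gm52612 on the log2 scale. For H3K27ac it was −1.82 for Rab3ip, 1.17 for Ubqln1, 1.01 for Ugcg and 0.54 for Gm9530. Ubqln1 and Ugcg were absent from all cut Xist fl/fl lists, so their values are the WT differences (−1.17 and −1.01) with the sign turned. Ankrd35 and Ptgfrn were 0 in all WT mb1 and all Xist fl/fl tat libraries, groups without a spread.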

How the results depend on the processing

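With the deposited lists, the number of genes called was 0 for each mark, and the covered length of WT tat exceeded that of WT mb1 by 5.522 Mb for H3K27me3 and 2.922 Mb for H2AK119Ub, with an H3K27me3 X ratio difference of 0.3222. Genes separated by presence numbered 35, 2 and 241 there for H3K27me3, H2AK119Ub and H3K27ac. For H3K27me3, calls numbered 60 when lists were ranked by highest signal, 77 with lists of 50% length, 83 after quantile scaling, 0 with the replicate block, 8 among genes with a peak in every library and 32 with the Xist fl/fl libraries in the fit. For H2AK119Ub they numbered 8, 6, 36 with a pseudocount of 1 ppm, 0 with the block, 0 in every library, 6 with Xist fl/fl libraries and 0 with the type of list as a term (unadjusted p under 0.05: 126 with the block, 82 in every library and 126 with list type). For H3K27ac they numbered 32 with the block, 8 in every library, 101 at equal covered length and 40 with Xist fl/fl libraries. The H3K27me3 block gave 358 at an unadjusted p under 0.05, and under it the covered length difference was −13.24 Mb (p = 0.25, exact permutation). With 50% lists, shared genes numbered 1141, 960 and 585 and those separated by presence 76 and 17 for H3K27me3 and H2AK119Ub; at equal covered length, shared genes numbered 954 for H3K27me3 and 463 for H3K27ac. Named genes that changed sign were Med12l (−0.1199 in deposited lists, −0.04326 ranked by highest signal) and, at equal covered length, Dthd1 (−0.04206), Eif4enif1 (0.004544) and Mta3 (0.03298). The causes were not tested.

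Leaving out each library in turn, with the filter applied again to those left, H3K27me3 calls ranged from 121 to 214, H2AK119Ub calls from 0 to 10 (10 without WT tat 1, 0 without any other, where 106 to 154 had an unadjusted p under 0.05) and H3K27ac calls from 9 (without WT mb1 3) to 113 (without WT tat 1). That filter, signal in at least 3 libraries, drops genes marked only in a system of 3 libraries that lost 1. H3K27me3 WT mb1 had 4 libraries, so genes marked there alone could stay. Without WT mb1 1, 2 or 3, the H3K27ac calls were 8, 15 and 6 higher and 5, 12 and 3 lower in WT tat. With the tested genes held fixed, an alternative chosen after seeing the data, the highest counts were 220, 25 and 117, H2AK119Ub calls were 0, 10, 0, 25, 11 and 12 without WT mb1 1, 2, 3 and WT tat 1, 2, 3, and H3K27ac calls were 45, 68, 38, 117, 55 and 96. Genes separated by presence ranged over 160 to 276, 78 to 113 and 93 to 160, and shared genes over 2032 to 2335, 1648 to 1707 and 1109 to 1267. Covered length differences ranged over −22.31 to −11.84, −5.749 to −1.279 and −14.31 to −8.755 Mb, deposited peak differences over 3992 to 11580, −4511 to 15330 and −2087 to −815.3, and X ratio differences over −0.487 to 0.1538, −0.02476 to 0.126 and −0.04355 to 0.1481. Same-numbered samples had correlations of −0.101 to 0.135, so the replicate numbers did not pair the samples. Over named genes, 879 alternatives kept direction and side of the threshold, 303 lost the call, 20 gained one and 5 changed sign. Without read depth, absence of a peak sets no limit on the mark.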
